A study of Mus musculus with 32 samples.

Results

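Oocyte maturation in the inbred mouse strain D2 was described here by setting 5 libraries of metaphase II (MII) oocytes against 5 libraries of germinal vesicle (GV) oocytes. These 10 libraries were chosen by their labels for strain and stage, out of 32 libraries that also covered the B6 strain and the B6xD2 F1 hybrid. The oocytes of 1 D2 female, 9 to 20 in number, were pooled for each library, and the females were 8 to 12 weeks old, so the labels make each library a biological replicate. GV oocytes alone were collected in the presence of IBMX, a phosphodiesterase inhibitor that keeps oocytes in prophase arrest, so stage and this agent cannot be told apart. Whether the females had been given hormones, and how oocytes of each stage were picked, is not given in the sources used here. At both stages a brief acid treatment had taken off the zonae. Each stage had 3 libraries in batch 1 and 2 libraries in batch 2, which was sequenced on another instrument. Sample titles of batch 2 carry a date-like prefix that differs between replicates 1 and 2 and is shared by the GV and MII library of each number. The B6 and F1 libraries, used only in the last comparison (B6 5 GV and 6 MII, F1 6 GV and 5 MII), carry the same labels for age, pooling and collection.

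A fully grown GV oocyte waits in prophase of meiosis I, holds a large store of maternal mRNA and has all but stopped transcription. During maturation it breaks down its nucleus, completes the first division and halts again at metaphase of the second, ready for fertilization. Because new transcription is minimal, changes of an mRNA between GV and MII are mostly known from its decay and from lengthening or shortening of its poly(A) tail. Levels here are CPM, read counts scaled to a common library total, so a transcript that stays while others decay takes a larger share. A change in relative level and a change in molecules per oocyte cannot be told apart in these data, nor can fewer attached follicle cells and less RNA per such cell.

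The 10 libraries held 24.8 to 35.3 M counts, and between 18530 and 22822 genes had a read. Oocyte markers were high at both stages: Gdf9, a growth factor made by the oocyte, ran from 2960 to 3870 CPM in GV and from 3300 to 3530 CPM in MII. RNA of other ovarian cells moved with the stage. The mean log2 CPM of 33 granulosa and cumulus cell markers was 4.16, 3.69 and 2.99 in the batch 1 GV libraries, and 4.35 and 0.98 in the batch 2 GV libraries. In MII it was 0.44, -0.14 and 0.84 in batch 1, and 0.88 and 0.19 in batch 2. The GV library of batch 2 replicate 2 thus stood apart from the other GV libraries and lay just above the highest MII library. Its title prefix is that of the MII library of batch 2 replicate 2, not that of the other batch 2 GV library. The GV library of batch 1 replicate 3 stood apart in blood RNA, with 200 CPM of the beta-globin gene Hbb-bs against at most 8.18 CPM in any other library. Main counts are therefore given with and without the first of these, and the globin values library by library.

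Of 19003 genes tested, 5461 differed between D2 MII and D2 GV oocytes, or 28.7% at an adjusted p under 0.05 (edgeR quasi-likelihood test). Of these, 2496 (13.1%) were higher and 2965 (15.6%) lower in MII. The falls were far larger than the rises, since 2552 genes (13.4%) were called and at least 2-fold lower, and 176 (0.926%) called and at least 2-fold higher. Only 773 of the 2552 and 56 of the 176 had a mean of at least 5 CPM in the D2 libraries. The median log2 change of all tested genes was -0.03. Among the 9708 genes with a mean of at least 5 CPM in the D2 libraries the balance was the other way, with 2363 (24.3%) higher and 1172 (12.1%) lower, and the median log2 change was 0.19. That balance depends on the genes in the fit. With only genes of a mean of 5 CPM in it, 1249 were higher and 1565 lower. MII libraries all lay below all GV libraries for 930 genes (4.89%) and all above them for 618 (3.25%). Without the GV library low in granulosa markers, 2574 genes were higher and 3165 lower. With the title prefixes as further batch levels 2505 were higher and 2932 lower. With the granulosa marker level of each library as a covariate, which itself tracks the stage, 549 (2.89%) were higher and 928 (4.88%) lower, and 473 and 863 of these were among the main calls. This covariate is the mean log2 CPM of the tested granulosa markers, so the change of a marker with it is not independent of it. Most list members below are at 5 CPM or more, so their counts in the main fit are to be read against its 24.3% higher and 12.1% lower at that level. Their log2 changes in that fit are likewise to be read against its median of 0.19 at that level.

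**Figure D1:**
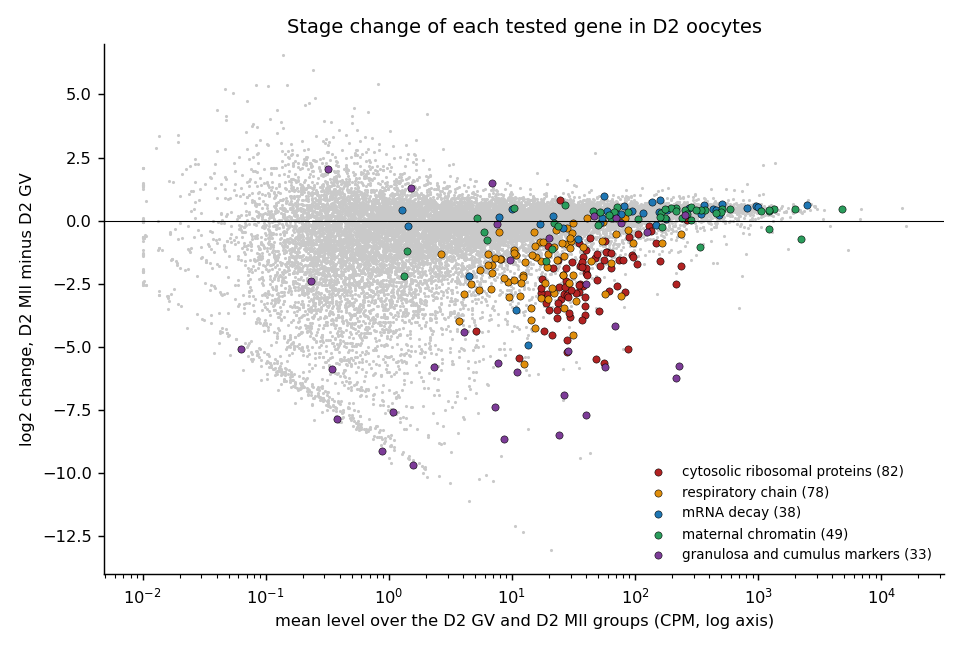
Log2 change between D2 MII and D2 GV against mean level in CPM (log axis), 1 point per tested gene, with 5 gene lists in colour and the number of tested members in brackets. Cytosolic ribosomal protein and respiratory chain genes lie below 0, mRNA decay and maternal chromatin genes lie mostly just above it, and granulosa markers reach the lowest values of the 5 lists.

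The rises with the largest folds were led by the oocyte maturation genes Omt2b and Omt2a, neighbouring copies named for their expression in maturing oocytes. Omt2b stood at 506, 808, 758, 252 and 266 CPM in the GV libraries (batch 1 first) and at 2000, 2410, 2330, 2360 and 1950 CPM in the MII libraries. Every MII library was thus above every GV library, and batch 2 GV libraries were the lowest. The log2 change of Omt2b was 2.27 ± 0.27 (SE, adjusted p = 5.55e-07), with 1.62 within batch 1 and 2.94 within batch 2. Omt2a rose by 2.20 ± 0.26, but the last 150 bases of the transcripts of this gene and Omt2b match at 122 positions, so reads split between the copies are uncertain. Mphosph6, a cofactor of the nuclear exosome that trims ribosomal RNA, went from 350, 546, 440, 402 and 430 CPM to 794, 1020, 1300, 1520 and 1350 CPM, a log2 change of 1.45 ± 0.16 (adjusted p = 1.42e-08). No MII library overlapped the GV range for this gene.

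Nip7, a factor of large ribosomal subunit assembly, rose from 13.9 ± 3.27 (SD, n = 5) to 42.5 ± 10.9 CPM (SD, n = 5), a log2 change of 1.62. Gle1, which works at the nuclear pore in mRNA export, rose from between 90.6 and 138 CPM to between 157 and 397 CPM (log2 change 1.31), and the ciliary protein gene Sclt1 by a log2 change of 1.37. The single-stranded DNA binding protein gene Fubp3 rose by 1.41 and Bccip, which binds BRCA2 and the CDK inhibitor p21, by 1.48. The cadherin gene Cdh24 rose by 1.88, but its MII libraries held 8.96, 11.7, 12.7, 15.0 and 80.8 CPM, so 1 library lay far above the rest. The log2 change within batch 1, which does not hold that library, was 0.60 for Cdh24. Ptgs2, a prostaglandin synthase also made by cumulus cells, had MII values from 3.98 to 19.7 CPM that overlapped the GV range of 1.52 to 6.69 CPM (log2 change 1.48 ± 0.51, adjusted p = 0.0283), and this call was lost when any of 6 of the 10 libraries was left out.

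Of 21 tested genes that mark oocyte identity, 6 were higher and 9 lower, with a median log2 change of -0.14, and 2 were higher and 10 lower with the granulosa covariate. The zona pellucida genes among them encode the glycoprotein coat that sperm bind. Zp3 stood at 1440, 1050, 1520, 800 and 1170 CPM in GV and at 392, 303, 243, 181 and 214 CPM in MII. The ranges did not overlap, and Zp3 fell by 2.19 ± 0.15 on the log2 scale (adjusted p = 6.8e-13). Zp2 went from 647, 512, 646, 616 and 849 CPM to 243, 194, 197, 184 and 203 CPM, with no overlap and a fall by 1.68 ± 0.14 on the log2 scale (adjusted p = 4.75e-11). Zp1 overlapped between stages and fell by 0.47 ± 0.12 (adjusted p = 0.00501). Of 11 tested zona and sperm-egg genes, 6 fell and 0 rose, and 5 fell without the GV library low in granulosa markers or with the granulosa covariate. The zona and sperm-egg falls included Uchl1, an oocyte ubiquitin hydrolase linked to the block to polyspermy, which fell by 1.55 ± 0.19. The tetraspanin gene Cd81 fell by 3.41 on the log2 scale, but it stood at 2.37 CPM in the GV library low in granulosa markers against 19.4 to 26.1 CPM in the others. With the granulosa level as a covariate the log2 change of Cd81 was 0.06.

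Of 12 tested genes on the list of oocyte-secreted factors and their partners, 4 were higher and 4 lower, and 1 and 2 with the granulosa covariate. The lower ones were Oosp2, Inhbb, Nppc and Npr2, of which Inhbb and Npr2 are also on the granulosa list and so form part of the covariate. The log2 change of Npr2 was 1.84 with the covariate, a value not independent of it. The mean log2 CPM of the list in the GV library low in granulosa markers (5.22) lay within the MII range of 5.22 to 5.49. Gdf9 (3300 ± 359 CPM in GV, 3400 ± 93.9 CPM in MII, both SD, n = 5) had a log2 change of 0.05 ± 0.11 (adjusted p = 0.796), while its partner Bmp15 rose by 0.42 ± 0.13 (adjusted p = 0.0126). The Oosp genes, which encode oocyte secreted proteins, differed among themselves. Oosp1 rose from 753 ± 330 to 1450 ± 223 CPM (log2 change 1.05 ± 0.16), Oosp3 rose by 0.59, and Oosp2 fell from 179 ± 54.0 to 80.0 ± 31.6 CPM (log2 change -1.20 ± 0.18). For Bmp15 the call was lost without the GV library of batch 1 replicate 5 (0.36) or batch 2 replicate 1 (0.30).

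The subcortical maternal complex is a protein assembly under the egg membrane that embryos need for their first cleavages. A list of its genes together with Nlrp relatives had 6 of 18 tested genes higher and 4 lower, all at 5 CPM or more. The higher ones were Zbed3 and the Nlrp relatives Nlrp9b, Nlrp9c, Nlrp4a, Nlrp4c and Nlrp4e, and with the granulosa covariate 0 were higher and 4 lower. Khdc3 (also called Filia) held 344, 355, 421, 97.6 and 113 CPM in GV and 43.7, 49.9, 44.6, 18.4 and 13.2 CPM in MII. Batch 2 was lower at both stages, and MII was below GV in each batch. Khdc3 fell by 2.91 ± 0.23 on the log2 scale (adjusted p = 2.66e-11), with -3.10 within batch 1 and -2.85 within batch 2. Padi6 and Tle6, other members of the complex, fell by 0.53 and 0.63. Nlrp5 (also called Mater), at 891 ± 183 and 899 ± 20.8 CPM, had a log2 change of 0.02 ± 0.11 (adjusted p = 0.921), and the related Nlrp4e rose by 0.55. Outside the complex, Tex19.1, a protector against retrotransposons, rose by 1.31 ± 0.39 (adjusted p = 0.0132), but not past the threshold without the GV library of batch 2 replicate 1 (1.17). The maternal factor gene Dppa3, which guards maternal DNA methylation, had a log2 change of -0.33 (adjusted p = 0.135).

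Genes of mRNA decay were called higher in 17 and lower in 4 of 38 cases, with a median log2 change of 0.33. Of the 35 members at 5 CPM or more, 17 were higher and 3 lower, against 24.3% and 12.1% of all genes at that level, whose median was 0.19. The mean log2 CPM of the list was 6.18 ± 0.10 in GV and 6.20 ± 0.08 in MII (SD, n = 5), so its level overlapped between stages. Without the GV library low in granulosa markers the counts were 18 and 4, and with the granulosa covariate 7 and 1. Btg4, the adaptor that brings the CCR4-NOT deadenylase to maternal mRNA in maturing oocytes, stood at 789, 980, 818, 582 and 689 CPM in GV and at 1070, 1140, 1190, 1250 and 1060 CPM in MII. All MII libraries were above all GV libraries, with a log2 change of 0.58 ± 0.12 (adjusted p = 0.000382). The deadenylase subunits Cnot7 and Cnot6l rose by 0.52 ± 0.15 and 0.54 ± 0.13, and Cnot8, a paralog of Cnot7, by 0.96 ± 0.17. Pan3, of the other deadenylase PAN2-PAN3, rose by 0.66 ± 0.10. The decapping genes Dcp1a and Dcp2 rose by 0.64 and 0.61, and Dcp2 went from 252, 283, 240, 300 and 358 CPM to 392, 408, 429, 480 and 465 CPM without overlap. Zfp36l2, which binds AU-rich elements, had a log2 change of -0.15 (adjusted p = 0.68), and Ythdf2, which reads m6A marks for decay, 0.10 (adjusted p = 0.675). The call of Cnot7 was lost without the GV library of batch 1 replicate 5 (0.44) or batch 2 replicate 1 (0.37).

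Among 44 genes of mRNA storage and translational control, 16 were higher and 5 lower (median log2 change 0.26), all of these among the 41 members at 5 CPM or more. These became 4 and 3 with the granulosa covariate. Of the 5 falls, that of Cpeb1 concerned the protein that holds cytoplasmic polyadenylation element (CPE) mRNAs silent in the GV oocyte and is itself degraded during maturation. Cpeb1 stood at 717, 701, 730, 654 and 733 CPM in GV and at 258, 281, 223, 197 and 164 CPM in MII. The GV libraries were tightly grouped and far above MII, and the log2 change was -1.66 ± 0.11 (adjusted p = 3.76e-13). Its relative Cpeb4, which takes over during maturation, rose by 0.41 ± 0.11 (adjusted p = 0.00373). The egg factors Zar1 and Zar1l, which bind stored mRNA, fell by 0.63 and 0.97, with no overlap between stages. Lsm14a, a protein of repressed mRNP granules, rose by 0.81. Dazl, a translational activator of maturation, rose by 0.46 (adjusted p = 0.0417), a call lost when any of 6 libraries was left out. Ybx2, a main mRNA packaging protein of oocytes, stood at -0.12 (adjusted p = 0.549), the oocyte cap-binding gene Eif4e1b at -0.18 (adjusted p = 0.275) and the embryonic poly(A) binding protein gene Pabpc1l at -0.18 (adjusted p = 0.407). Pabpc1, the poly(A) binding protein of somatic cells, fell by 1.15 ± 0.29 (adjusted p = 0.00336) with no overlap of the groups, but its log2 change was 0.04 with the granulosa covariate. Plat, whose stored mRNA is a textbook case of polyadenylation during maturation, had a log2 change of 0.13 (adjusted p = 0.421).

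**Figure D2:**
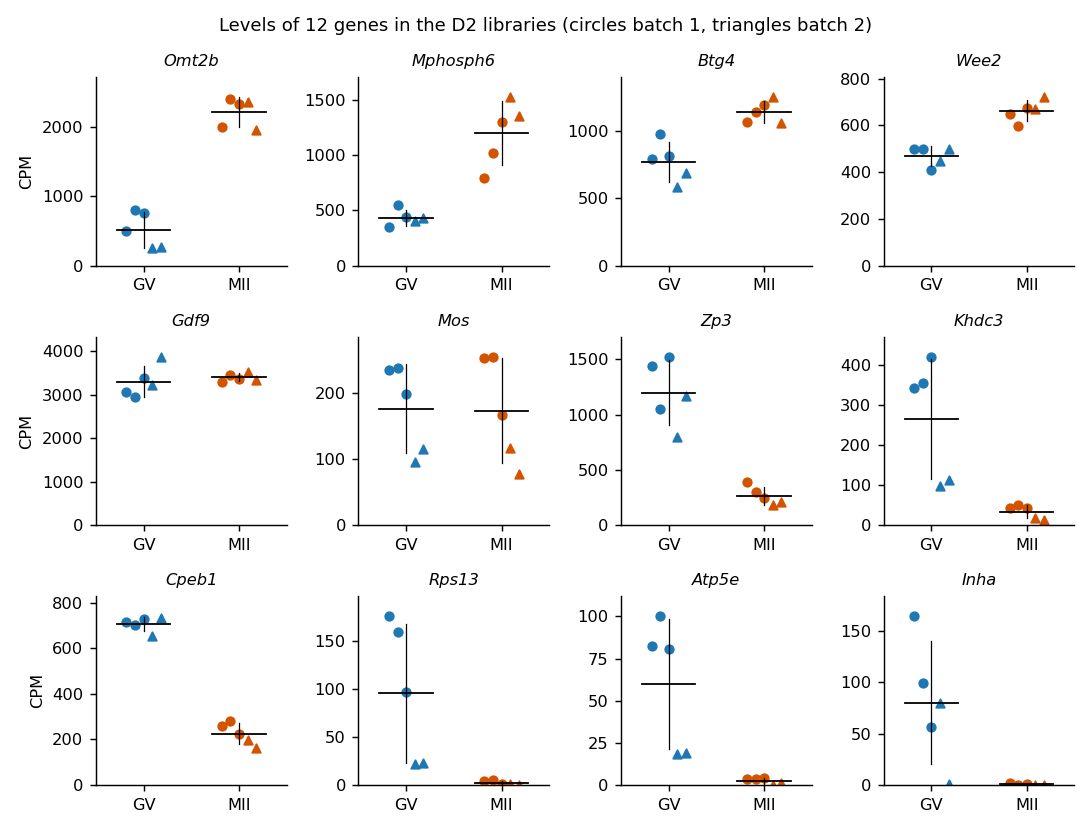
CPM of 12 genes in each D2 library by stage (linear axes from 0, circles batch 1, triangles batch 2; horizontal bars are means and vertical bars SD over 5 libraries, drawn no lower than 0). Omt2b, Mphosph6, Btg4 and Wee2 are higher in MII, Gdf9 and Mos overlap between stages, and Zp3, Khdc3, Cpeb1, Rps13 and Atp5e are lower in MII in every library, while the single GV library near 0 for Inha is batch 2 replicate 2.

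Meiotic kinases and the anaphase-promoting complex (APC/C) had 14 of 57 tested genes higher and 6 lower (median log2 change 0.17). Of its 54 members at 5 CPM or more 14 were higher and 5 lower, which is near the 24.3% and 12.1% of all genes at that level. Wee2, the oocyte kinase that inhibits CDK1 in prophase arrest and at egg activation, stood at 499, 498, 408, 446 and 499 CPM in GV and 648, 597, 673, 672 and 720 CPM in MII, again without overlap (log2 change 0.49 ± 0.09, adjusted p = 0.000164). Fbxo43 (also called Emi2), which keeps the APC/C off at metaphase II, stood at 121, 159, 169, 165 and 200 CPM in GV and 216, 228, 261, 284 and 284 CPM in MII (log2 change 0.65 ± 0.11, adjusted p = 6.8e-05). Ccnb1, cyclin B1, rose by 0.46 ± 0.10 (adjusted p = 0.000906), and its kinase Cdk1 fell by 0.47 ± 0.17 (adjusted p = 0.0304), a call lost without any of 3 MII libraries. Mos, the kinase behind metaphase II arrest, ranged from 95.3 to 237 CPM in GV and from 77.1 to 254 CPM in MII, with a log2 change of -0.04 (adjusted p = 0.891). Neither the APC/C activator Cdc20 (0.21, adjusted p = 0.417) nor the checkpoint kinase gene Bub1b (0.21, adjusted p = 0.243) passed the test. Beside Cdk1, the lower members were the kinase gene Rps6ka2, the protein kinase A subunit gene Prkar2b, the APC/C subunit genes Anapc11 and Anapc13, which fell by 2.10 and 2.30, and Ensa, an inhibitor of PP2A phosphatase, which fell by 1.55. The list had 4 members higher and 4 lower with the granulosa covariate.

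Cohesin, kinetochore, spindle and checkpoint genes had 24 of 69 higher and 7 lower (median log2 change 0.23), and 2 higher and 5 lower with the granulosa covariate. Birc5 (survivin, of the chromosomal passenger complex) fell by 1.20 ± 0.13, the spindle gene Tacc3 by 0.80 ± 0.12 and Spc24, a small subunit of the NDC80 complex, by 2.23 ± 0.37. Tacc3 stood at 463, 459, 582, 515 and 590 CPM in GV and 290, 323, 353, 265 and 279 CPM in MII, with no overlap. The centromere protein gene Cenpb had 838 pooled GV counts against 2 pooled MII counts, a ratio of 403 with an exact 95% counting interval of 112 to 3330 for the MII count. Its GV libraries ranged from 1.20 to 16.7 CPM. Of the higher genes, the centromere cohesin protector Sgo1 rose by 0.70, the checkpoint gene Mad2l1 by 0.39 and the cohesin subunit gene Smc3 by 0.44.

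Among genes of egg activation and calcium signalling, 9 of 33 were higher and 4 lower (median log2 change 0.09), and 2 and 0 with the granulosa covariate. Of the 25 members at 5 CPM or more 9 were higher and 0 lower. Atp2a2, the pump that refills calcium stores, rose by 0.68 ± 0.10 (adjusted p = 9.22e-06), from 692 ± 265 to 1110 ± 429 CPM. The groups of Atp2a2 overlapped because batch 2 was higher at both stages, while the log2 change was 0.59 within batch 1 and 0.56 within batch 2. Itpr1, the IP3 receptor that releases calcium at fertilization, rose by 0.33 (adjusted p = 0.0234). The lower members were the exchanger Slc8a1, the kinase Camk2d and the metallothioneins Mt1 and Mt2. Slc8a1 stood at 0.635 CPM in the GV library low in granulosa markers and at 1.15 to 19.4 CPM in the others.

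Genes of maternal chromatin had 22 of 49 members higher and 3 lower, with a median log2 change of 0.34. With the granulosa covariate 3 were higher and 4 lower. Tet3, the enzyme that oxidizes methylated DNA in the zygote, rose by 0.48 ± 0.10 (adjusted p = 0.000714), and Ezh2, the Polycomb methyltransferase, by 0.48 ± 0.10 (adjusted p = 0.000643). Zfp57, which protects imprints, rose by 0.45 and the oocyte linker histone gene H1f8 by 0.39. The 3 falls were Dnmt1, Dnmt3l and Npm2. Dnmt1, the maintenance DNA methyltransferase, stood at 1920, 1820, 2940, 3140 and 4220 CPM in GV and at 1520, 1530, 1630, 1830 and 1740 CPM in MII. MII libraries were close together and GV libraries spread widely, and the lowest GV library lay inside the MII range (log2 change -0.72 ± 0.14, adjusted p = 0.000158). Dnmt3l, the cofactor of imprint establishment, fell by 1.13 ± 0.24, and Npm2, which packs sperm chromatin after fertilization, by 1.05 ± 0.26.

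Transcription machinery had 12 of 40 genes higher and 8 lower, and 3 and 6 with the granulosa covariate. Of the falls, 6 were RNA polymerase II subunits, where the log2 changes were -2.29 for Polr2i, -1.45 for Polr2j, -3.15 for Polr2l, -0.95 for Polr2g, -1.38 for Polr2k and -0.48 for Polr2d. Polr2l stood at 58.6, 67.9, 51.9, 16.2 and 12.5 CPM in GV and at 5.19, 5.25, 1.18, 0.887 and 5.70 CPM in MII, with no overlap. The catalytic subunit genes Polr2a (adjusted p = 0.994) and Polr2b (0.09, adjusted p = 0.573) did not pass the test, and Polr2c rose by 0.62. The general factor gene Gtf2a1 rose from 698 ± 93.6 to 1090 ± 84.7 CPM (log2 change 0.64 ± 0.10). DNA repair genes had 19 of 68 higher and 2 lower, with Brca2 (0.52 ± 0.11) and Rad51c (0.64 ± 0.14), both of homologous recombination, among those that rose. The 2 falls were Rnf8, the ubiquitin ligase that marks breaks (fell by 2.20 ± 0.21, with no overlap), and the histone variant gene H2ax (fell by 1.32 ± 0.26). With the granulosa covariate 0 repair genes were higher and 2 lower.

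The genes of cytosolic ribosomal proteins fell in 79 of 82 cases, against 15.6% of all tested genes. Their median log2 change was -2.38, and for 42 of the 82 every MII library was below every GV library, against 4.89% of all genes. Rps13 stood at 175, 159, 96.6, 22.0 and 22.3 CPM in GV and 3.67, 4.60, 0.635, 0.887 and 0.277 CPM in MII. Both stages were lower in batch 2, and Rps13 fell by 5.49 ± 0.35 on the log2 scale (adjusted p = 5.73e-13), with -5.69 within batch 1 and -5.37 within batch 2. Rpsa stood at 85.3, 52.9, 51.1, 46.4 and 36.9 CPM in GV and 1.68, 3.71, 1.24, 0.423 and 1.03 CPM in MII (log2 change -5.19 ± 0.36). Rps4x fell by 2.83 ± 0.18 and Rpl13 fell by 3.36 ± 0.22. Rps27l, a stress-induced paralog, was the single member that rose (0.81, adjusted p = 0.0157). Rpl4 (0.02, adjusted p = 0.923) and Rpl15 (-0.23, adjusted p = 0.383) did not pass the test. With the granulosa covariate 67 were lower, and without the GV library low in granulosa markers 79. Ribosomal protein genes have many processed pseudogenes, and how the counting treated reads shared with them is not given in the sources used here.

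Nuclear genes of the respiratory chain had 65 of 78 lower and 0 higher (median log2 change -1.58), and 51 lower with the granulosa covariate. Atp5e, the epsilon subunit of ATP synthase, stood at 82.2, 100, 80.6, 18.3 and 18.7 CPM in GV and 3.58, 3.60, 4.35, 0.127 and 1.27 CPM in MII, with no overlap. It fell by 4.54 ± 0.32 (adjusted p = 8.92e-13). Atp5k, another small ATP synthase subunit, fell by 3.94 ± 0.37, Ndufb5 of complex I fell by 2.86 ± 0.27 and Cox7a2l, which joins respiratory supercomplexes, by 2.90 ± 0.23. Of the mitochondrial ribosomal proteins 28 of 78 were lower and 1 higher (Mrpl3), with a median log2 change of -0.44, and 14 were lower with the granulosa covariate. Mrpl33 fell by 3.85 ± 0.43 and Mrps18c fell by 2.29 ± 0.38.

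**Figure D3:**
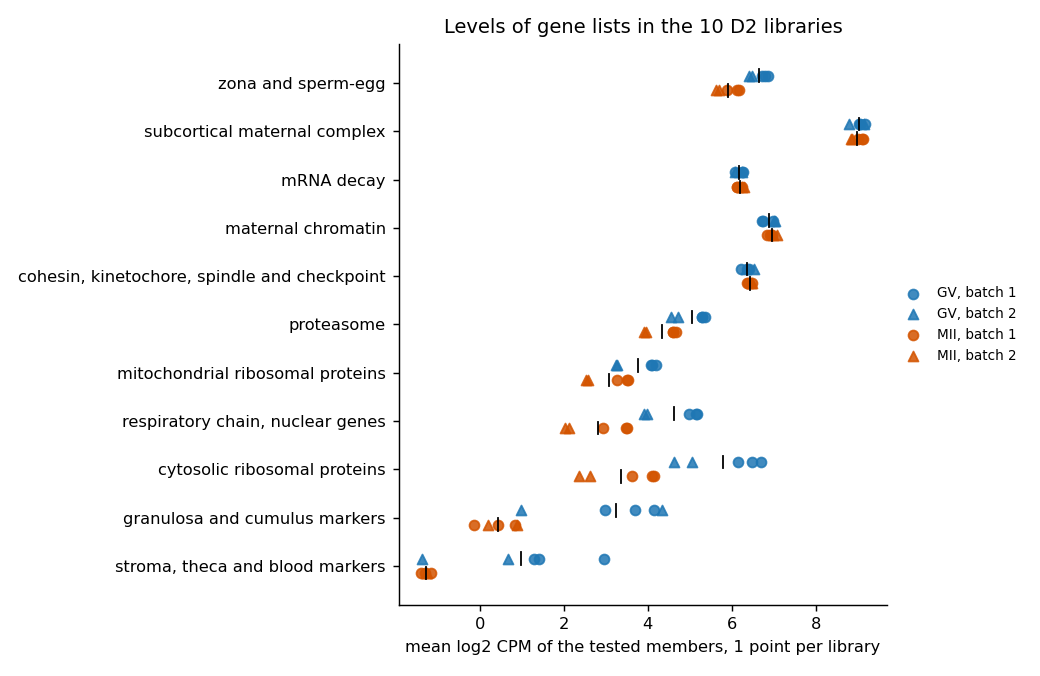
Mean log2 CPM of the tested members of 11 gene lists in each of the 10 D2 libraries (circles batch 1, triangles batch 2; vertical bars are group means). Cytosolic ribosomal protein and respiratory chain lists are lower in MII within each batch and lower in batch 2 at each stage, while the mRNA decay, chromatin and spindle lists overlap between stages.

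Other basic machinery was mixed. Of 48 proteasome genes 20 were lower and 4 higher, and 11 and 1 with the granulosa covariate. The catalytic core genes Psmb7 (103, 132, 135, 100 and 92.1 CPM in GV, 28.8, 26, 18, 18.7 and 19 CPM in MII) fell by 2.35 ± 0.22 and Psmb4 fell by 2.29 ± 0.29, while the activator gene Psme4 rose by 0.57 ± 0.10. Translation factors had 15 of 46 lower and 8 higher (12 and 1 with the covariate), and Eef1g and Eif3k fell by 3.38 and 2.72. Spliceosome genes had 10 of 56 lower and 12 higher (9 and 3 with the covariate), and 8 and 12 of the 52 members at 5 CPM or more, where all genes had 12.1% and 24.3%. Small Sm and LSm proteins went both ways: Snrpd2 fell by 3.37, Lsm4 by 4.17 and Lsm3 by 1.67, while Snrpe and Snrpg rose. The large U5 proteins Prpf8 (0.24) and Snrnp200 (0.39) were called higher, where the median log2 change of all genes of at least 5 CPM was 0.19. Ribosome biogenesis had 14 of 66 higher, Nip7 among them, and 11 lower, such as Imp3 (-2.05) and Emg1 (-1.13). Of its 59 members at 5 CPM or more 14 were higher and 7 lower, near those same shares, and with the covariate 1 was higher and 5 lower. Antioxidant genes had 12 of 41 lower and 0 higher (median log2 change -0.68), and 6 lower with the covariate (median -0.17). Their mean log2 CPM in the GV library low in granulosa markers (2.83) lay inside the MII range of 2.42 to 3.13. Among them, Glrx5, a mitochondrial glutaredoxin, fell by 2.69 ± 0.28 and the peroxiredoxin Prdx2 fell by 1.11 ± 0.15. Of 47 genes of glycolysis, pyruvate use and the citric acid cycle 11 were lower and 4 higher (median log2 change -0.47), and 4 and 1 with the covariate (median -0.02). Mdh2 fell by 0.87 ± 0.14, while Idh1 fell by 1.5 ± 0.36 but stood at 4.65 CPM in the GV library low in granulosa markers, below the lowest MII library, and its log2 change was 0.27 with the granulosa covariate.

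Direction went with transcript length. The 8940 genes of at least 5 CPM with an annotated coding transcript were split into 5 classes of equal size by their longest one. In the shortest class (up to 1927 bases) 29.9% were lower and 11.4% higher, and in the longest (5622 bases or more) 6.15% were lower and 38.9% higher. The shares in between moved in the same order for higher genes, at 18.5%, 25.3% and 32.4%, while lower genes made up 10.0%, 5.82% and 5.37%. The median log2 change ran -0.14, 0.14, 0.23, 0.27 and 0.30 from short to long. Leaving out ribosomal protein and respiratory chain genes left 24.2% lower and 12.6% higher in the shortest class. Set against the batch 2 GV library low in granulosa markers alone, the batch 2 MII libraries had medians of -0.22, 0.06, 0.14, 0.17 and 0.23. With the median instead of the longest transcript the shortest class held 26.0% lower and 17.7% higher and the longest 5.98% and 36.0%. In 4 of the lists above the longest transcripts of lower and higher members had medians of 895 and 6276 bases in transcription machinery, 1204 and 3578 in the spliceosome, 2423 and 4642 among spindle genes and 1211 and 2888 in the proteasome. Among meiotic kinases and APC/C genes the order was the other way, with 3612 for lower and 2701 for higher members. The same held for oocyte-secreted factors (2351 and 2016) and for cytosolic ribosomal proteins (906, and 575 for the single higher member). With the granulosa covariate the share of lower genes went from 20.3% in the shortest class to 1.29% in the longest, and that of higher genes from 3.47% to 8.39%. The ribosomal protein genes, mostly short, were also lower in batch 2 than in batch 1 at each stage, with mean log2 CPM of 6.44 and 4.84 in GV and 3.96 and 2.50 in MII. The part of amplification and library making in the relation with length was not tested.

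**Figure D4:**
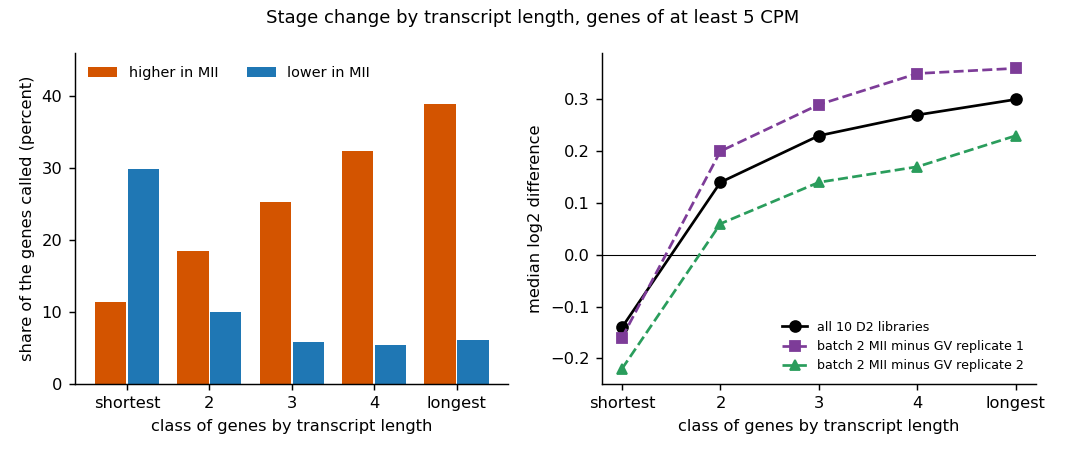
Left, percent of genes called higher or lower in D2 MII in each class by longest transcript (genes of at least 5 CPM). Right, median log2 difference per class in the fit of all 10 libraries and, as differences of log2 CPM, for the batch 2 MII libraries minus each batch 2 GV library; all 3 lines go up from the shortest to the longest class.

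The ends of the transcripts were compared next, because a CPE near the poly(A) signal is the element through which oocytes lengthen the tails of stored mRNAs. The last 150 bases of the 3′ UTR were taken from GENCODE M21 for 8387 of the genes of at least 5 CPM. They covered 2220 of the 2363 genes called higher, 5346 of the 6173 not called and 821 of the 1172 called lower. Lower genes were thus left out more often, and the shares below do not cover the genes left out. The bases were searched on the transcript strand for TTTTAT or TTTTAAT. These letters were found in 34.9% of the genes called higher, 26.1% of those not called and 20.7% of those called lower, and in 27.9% of all 8387 (23.6% of 18361 transcript ends at any level). On the opposite strand the shares were 46.8%, 44.3% and 40.1%, where the motif shares letters with the poly(A) signal. Median A+T content differed as well, at 66.0%, 62.7% and 60.7%. Within 4 classes of A+T content the shares with the motif among genes higher, not called and lower were 13.6%, 8.54% and 5.19% in the lowest class and 24.5%, 19.8% and 19.2% in the next. They were 35.9%, 29.3% and 29.8% in the class after that and 51.2%, 50.7% and 44.3% in the highest, where higher genes and those not called were close.

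Windows of 30 bases from genes described above show the letters, with the CPE and the poly(A) signal (AATAAA or ATTAAA) in capitals, 5′ to 3′ on the transcript strand, GRCm38. For genes that rose, a CPE upstream of the signal is shown. The windows are chr9:78329555-78329584 (+) for Omt2b, where the CPE and the signal run together, chr9:51119476-51119505 (+) for Btg4, chr6:40466756-40466785 (+) for Wee2, chr13:100778770-100778799 (-) for Ccnb1, chr15:36150145-36150174 (-) for Fbxo43 and chr8:40493038-40493067 (-) for Cnot7, all in 3′ UTR exons. From CPE start to the start of the last signal there were 10, 66, 20, 120, 77 and 9 bases in that order.
Omt2b: gggttttaacggTTTTATAATAAATAAAag
Btg4: ctttatgtaaaaTTTTATgaacactagtga
Wee2: ctttttaacataTTTTAATccagatcattg
Ccnb1: ttgctgTTTTAATttatacatctgatatca
Fbxo43: gtatatatgtgtTTTTATactatacacaca
Cnot7: tcttaaggtacaTTTTATatcAATAAAaat

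For genes that fell, whose last 150 bases held none of these CPE letters, the window ends at the signal. These are chr7:120126784-120126813 (-) for Zp2, chr9:73104397-73104426 (+) for Khdc3, chr7:116331524-116331553 (-) for Rps13 and chr2:174461093-174461122 (-) for Atp5e. The Rps13 transcript whose end was compared has a 3′ UTR of 868 bases. Over the cytosolic ribosomal protein genes the median of the longest whole transcript was 910 bases, so other Rps13 transcripts may end elsewhere. The genes shown were picked after their changes were known, and all that rose hold a CPE while none that fell do. Among all genes with an end compared, 34.9% of those higher and 20.7% of those lower held these letters. The windows are thus examples of the letters, do not represent those shares and add no count to them.
Zp2: ccttgctgtttgtctttaaactctAATAAA
Khdc3: tgcaaacacaatttaaagtattctAATAAA
Rps13: ataaatgctgttgtgtgcacaagcAATAAA
Atp5e: tctcgttgataaattgactatgccAATAAA

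Of 33 tested granulosa and cumulus markers 20 were lower and 1 (Ptgs2) higher, with a median log2 change of -5.16. Without the GV library low in these markers 22 were lower and 0 higher. Inha, an inhibin subunit of granulosa cells, stood at 164, 99.3, 56.8, 79.4 and 1.34 CPM in GV and at 1.65, 0.0343, 0.484, 0 and 0.119 CPM in MII. The single GV library inside the MII range was the one low in markers. Summed over libraries, Inha was 160-fold higher in GV, with an exact 95% interval of 127 to 205 from the MII count (counting error only). Other genes outside the list were among the largest falls. For Aldh1a1, an enzyme of retinoic acid synthesis, the ratio was 597 with an interval of 373 to 1030. Ccnd2, a cyclin of dividing granulosa cells, differed from Inha in 1 respect: it stood at 21, 29.7, 31.4, 40.9 and 10.9 CPM in GV, also high in the library low in markers, and at most at 0.242 CPM in MII. Ccnd2 was 315-fold higher in GV over the pooled counts, with an interval of 181 to 610. Its fitted log2 change was -8.26 ± 0.69, and -7.03 with the granulosa covariate. Hsd3b1, a steroid enzyme, ran from 282 to 1040 CPM in 4 GV libraries and stood at 6.15 CPM in the library low in markers, inside the MII range of 4.05 to 20.4 CPM. With the granulosa covariate its log2 change was 0.09 instead of -5.77, but Hsd3b1 is itself among the markers averaged into that covariate.

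Some markers of this list were also present in MII. Serpine2 stood at 232 ± 40.3 CPM in GV and 273 ± 17.8 CPM in MII (log2 change 0.23, adjusted p = 0.166), and Nr5a2 at 144 ± 61.5 and 107 ± 26.9 CPM (log2 change -0.43, adjusted p = 0.13). Foxl2 and Amhr2 had no read in any MII library. Of 26 tested markers of stroma, theca and blood, 14 were lower and 1, Pecam1, was higher (log2 change 0.55, adjusted p = 0.0129). Hbb-bs stood at 200, 8.18, 0.192, 0.108 and 0 CPM in GV and at 0 in every MII library, so the ratio of at least 2100, against a floor of 3 counts over the MII group, rests on the GV library of batch 1 replicate 3. The part that attached cells had in the changes of other genes was not tested, beyond the counts with the covariate and without the library given above.

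The change between stages in D2 was compared with the other genotypes in the same fit. It differed from that in B6 for 20 genes (0.105% of those tested), with 9 higher and 11 lower in D2, and from that in F1 for 6 genes (0.0316%), with 1 higher and 5 lower. At an unadjusted p under 0.05 there were 1820 and 1044 genes. Both comparisons share the D2 libraries. Without the D2 GV library low in granulosa markers 41 and 11 genes passed, and without the D2 GV library of batch 2 replicate 1 13 and 4. The count against F1 was also 3, 2 and 3 without the GV library of batch 1 replicate 3 or the MII libraries of batch 1 replicates 3 and 4. The list medians in B6 and F1 were -2.21 and -2.72 for cytosolic ribosomal proteins (-2.38 in D2) and -1.69 and -1.88 for the respiratory chain (-1.58 in D2). Some lists with medians near 0 had another sign there, such as egg activation genes (0.09 in D2, -0.17 in B6 and -0.05 in F1). Another was the list of subcortical complex genes and Nlrp relatives (0.19 in D2, -0.03 in B6 and 0.11 in F1). Differences of list medians between strains were not tested.

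Tex15, a germ cell gene of meiosis and transposon silencing, fell in D2 from a median of 19.2 CPM (7.49 to 39.3) to 4.82 CPM (2.61 to 7.00), a log2 change of -2.15. In B6 it went from a median of 196 to 181 CPM (log2 change -0.17) and in F1 from 103 to 88.6 CPM (-0.23), so the levels also differed by strain at GV. The difference in change was -1.97 ± 0.36 (adjusted p = 0.0103) against B6 and -1.92 ± 0.36 (adjusted p = 0.0211) against F1, the latter lost without the GV library of batch 1 replicate 3 or the MII library of batch 1 replicate 3 or 4. Cyb5r3, a cytochrome b5 reductase, fell in D2 from 36.0, 37.0, 51.9, 41.9 and 48.4 CPM to 12.4, 11.3, 5.50, 9.08 and 20.9 CPM, and in B6 the median went from 75.4 to 78.3 CPM (difference -1.67 ± 0.33, adjusted p = 0.0192, lost without the MII library of batch 2 replicate 1). Rps2 fell by 3.02 in D2 and by 1.48 in B6 (difference -1.53 ± 0.32, adjusted p = 0.0367). The D2 and B6 ranges of Rps2 overlapped at both stages, and the call was lost without any of 4 D2 MII libraries.

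For 3 genes named here the difference had the other sign. Pxdn, a peroxidase of the extracellular matrix, stood at 110, 112, 159, 134 and 177 CPM in D2 GV and 156, 168, 153, 202 and 198 CPM in D2 MII (log2 change 0.34, adjusted p = 0.362). In B6 its median went from 4.11 to 0.521 CPM, and the difference was 3.29 ± 0.43 (adjusted p = 0.00021). F1 stood between, with medians of 53.9 and 64.6 CPM. Stc1, a secreted glycoprotein gene, had medians of 10.9 and 15.8 CPM in D2 and of 0.767 and 0.0517 CPM in B6 (difference 4.87 ± 0.94, adjusted p = 0.0158). L1td1, derived from a LINE-1 element, had D2 medians of 2.71 and 4.18 CPM (difference 5.55 ± 1.09, adjusted p = 0.0158), with 0.378 and 0.0317 CPM in B6. In B6 MII libraries L1td1 ran from 0 to 0.036 CPM and Stc1 from 0 to 0.223 CPM. The sizes of these 2 differences thus rest on B6 values near 0. The calls of Stc1 and L1td1 were lost without the D2 GV library of batch 2 replicate 1, and that of L1td1 also without the MII library of batch 1 replicate 4 (4.29), which held 21.6 CPM. Sequence differences between D2 and the reference build, which is of B6, bear on levels between strains, and their part was not tested.

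**Figure D5:**
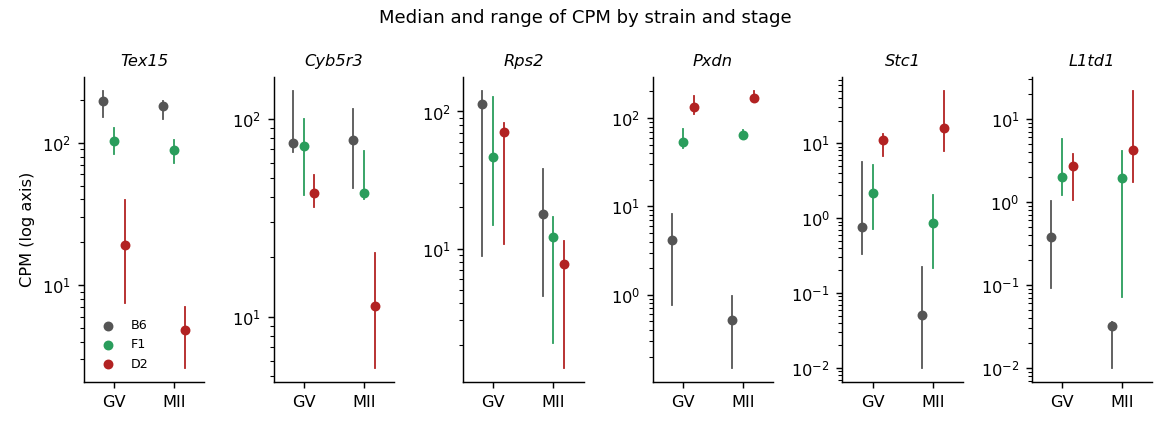
Median (points) and range (lines) of CPM by strain and stage on log axes for the 6 genes named in the comparisons between strains; values under 0.01 are drawn at 0.01. The D2 points of Tex15 and Cyb5r3 drop from GV to MII more than those of B6 and F1, and those of Pxdn, Stc1 and L1td1 stay level or go up while those of B6 drop.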

How the data were processed

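The deposited table holds raw read counts per gene made by the authors with HISAT2, SAMtools and featureCounts (Subread 1.5.1) on GRCm38.p4, per the submitters' processing notes, which also name DESeq2 1.16.1. Strand and multiple-mapping settings are not given in the sources used here. Per the labels, RNA was amplified by SPIA, libraries were amplified for 12 cycles and read as 50-nt single reads, with a different HiSeq model for each batch. Of 37444 entries 3 that name no gene or hold no counts were dropped (at most 0.019% of a library).

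From the counts, 1 edgeR 4.0.16 quasi-likelihood fit (filterByExpr, TMM, robust) was made over all 32 libraries with 6 groups and batch. Benjamini-Hochberg adjustment was over the 19003 tested genes separately in the 3 contrasts, and genes under 0.05 were called. SE is the log2 change over the root of F. All members and lists were chosen with earlier results of these data known. Genes named are the 10 largest changes per direction at 5 CPM or more, up to 4 members per list, up to 3 per strain contrast and a panel. Other members named were picked after their values were seen. In simulated counts for D2 MII against D2 GV (19003 genes, 50 changed genes per fold), 4%, 26%, 56% and 74% of genes changed 1.5-, 2-, 4- and 8-fold were called, and 3 unchanged genes. The changed genes were drawn from all levels and the rest left unchanged, whereas 28.7% were called in the data. Recovery in the data can therefore differ from these rates. Intervals cover counting error only. Alternatives covered scaling, filters, DESeq2 1.42.0, limma-voom (3.58.1), batch, a replicate block, the granulosa covariate and each library left out. Some named items are not reported here.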

Additional observations from a re-analysis of the deposited data

Results flagged for a closer look

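Of 254 pairs of a named gene and a D2 stage, 13 had a highest or lowest library whose gap to the next exceeded 0.71 of the group's range in log2 CPM, where chance gives about 1 in 20. The 13 flagged pairs are thus about as many as that share gives. The GV library of batch 2 replicate 2 accounted for 6 of them. It was the lowest GV library for Mid1ip1 (0 CPM), Aldh1a1 (0.134 CPM), Inha (1.34 CPM), Itih5 (0 CPM), Cd81 (2.37 CPM) and Hsd3b1 (6.15 CPM). The same library had the lowest granulosa marker level of the GV group. The part of attached cells in these values was not tested.

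The GV library of batch 1 replicate 4 was the highest for Gle1 (138 CPM). Among MII libraries, batch 1 replicate 2 stood apart for Mid1ip1 (0.0317 CPM) and batch 1 replicate 3 for Cenpb (0.0686 CPM). Batch 2 replicate 1 stood apart for Inhbb (0.676 CPM), and batch 2 replicate 2 for Cdh24 (80.8 CPM), Atp5k (0.317 CPM) and Eef1d (15.5 CPM). The MII values of Mid1ip1 and Cenpb come from 1 or 2 reads.

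By the test of the difference itself, the log2 stage change in D2 minus that in B6 was -1.97 for Tex15, -1.67 for Cyb5r3, -1.53 for Rps2, 5.55 for L1td1, 4.87 for Stc1 and 3.29 for Pxdn. Against F1 it was -1.92 for Tex15.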

How the results depend on the processing

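Of 127 named genes, 63 had the same call in every alternative run and 118 with each library left out. Of the 113 called, 106 kept their direction in every alternative. The other 7 changed sign with the granulosa covariate: Cd81 (0.06), Hba-a1 (1.11), Hba-a2 (0.45), Hsd3b1 (0.09), Idh1 (0.27), Npr2 (1.84) and Pabpc1 (0.04), as did the granulosa list median (0.12). Hsd3b1 and Npr2 are on the list whose mean is the covariate, so their values and that median are not independent of it. The 2496 genes higher in D2 MII became 1406 with D2 libraries alone, 176 at 2-fold or more, 907 in batch 1, 175 in batch 2, 549 with the granulosa covariate, 1249 at a mean of 5 CPM and 947 without a batch term. The 2965 lower genes became 1848 at 1 CPM, 1947 with D2 libraries alone, 594 in batch 2, 928 with the covariate and 1565 at a mean of 5 CPM. At a mean of 5 CPM lower genes thus outnumbered higher ones, the reverse of the main fit for genes at that level. The 20 genes against B6 became 0 in batch 2, 44 with the covariate and 12 with limma-voom, and the 6 against F1 became 0 in batch 2 and 2 with limma-voom. Of 23 lists, 11 had more members lower than higher, against 17 in batch 1, 18 in batch 2, 19 with the covariate and 17 without a batch term. Leaving out each library gave 1352 to 2574 genes higher, 2409 to 3165 lower, 13 to 41 against B6, 2 to 11 against F1 and 11 to 16 lists; the 1352 came without the GV library of batch 2 replicate 1. The causes were not tested. Median-of-ratios scaling gave 1958 higher and 3117 lower.

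Deviations of libraries that share a batch and replicate number across stages had r = 0.248, -0.076, -0.138 and 0.030. Other pairs of a GV and an MII library ran from -0.321 to 0.304. In batch 2 the pairs with different numbers had -0.115 and -0.321, both below the pairs with a shared number. There a shared number also goes with a shared title prefix, which the labels do not explain. These values do not settle whether the numbers pair libraries, and the main fit did not pair them. The replicate block gave 1783 genes higher and 1585 lower, 3 against B6 and 2 against F1.

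Depth limits genes with few reads: the ratio for Cenpb rests on 2 MII counts. The split by median transcript length was chosen after seeing the data.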

Other observations

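Further genes differed between D2 and B6 in their stage change. Elmo1, an activator of Rac signalling, had a difference of -2.78 ± 0.45 (adjusted p = 0.00185), and the unconventional myosin gene Myo7a one of -4.91 ± 0.78 (adjusted p = 0.00185), both from means under 5 CPM in D2. Above that level, the transcription factor genes Sp3 and Pknox2 differed the other way. Sp3 had log2 changes of 0.49 in D2 and -0.35 in B6 (difference 0.84 ± 0.15, adjusted p = 0.00801), and Pknox2 of 0.41 and -2.66 (difference 3.07 ± 0.47, adjusted p = 0.00137). Nlrp2, a relative of the subcortical complex member Nlrp5, had log2 changes of -0.03 in D2 and -0.88 in B6 (difference 0.85 ± 0.16, adjusted p = 0.0142). These were chosen after their values were seen.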
